A study of Homo sapiens with 6 samples.

Results

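The heat shock chaperones described here are 10 genes whose proteins fold other proteins in the cytosol and in the mitochondrial matrix. They are the Hsp70 genes HSPA1A, HSPA1B and HSPA8, the Hsp110 gene HSPH1, the J-protein gene DNAJB1, the Hsp90 genes HSP90AA1 and HSP90AB1, the Hsp90 activator gene AHSA1, and the mitochondrial chaperonin genes HSPD1 and HSPE1. They were taken by symbol from the deposited table, which held all 10 among its 19655 genes, and all 10 passed the filter on low counts that left 14062 genes. The members were selected on their measured CPM in ASO against NC, known before the set was put together, so their values in that comparison are a description and carry no test. The study compared SNORA67 knockdown cells (ASO), transfected with an antisense oligonucleotide directed at the small nucleolar RNA SNORA67, with control cells (NC), 3 libraries in each group. All 6 libraries are labelled HCT116, a human cell line started from a colorectal carcinoma, kept in 1 serum-containing medium. The sources used here do not give the dose, the time of harvest, the sequence of the oligonucleotide or what the control cells received. SNORA67 itself was not analysed here, so the knockdown could not be checked.

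Hsp70 proteins bind short exposed stretches of unfolded protein in cycles driven by ATP. J-proteins bring the substrate and start the ATP hydrolysis, and Hsp110 proteins release the nucleotide so that the cycle can begin again. Hsp90 takes over many partly folded clients, among them kinases and steroid receptors, and AHSA1 stimulates its ATPase. In the mitochondrial matrix, HSPD1 (Hsp60) forms a barrel that HSPE1 (Hsp10) caps. Heat shock factor 1, encoded by HSF1, raises many of these genes under stress by binding heat shock elements, inverted repeats of GAA.

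The heat shock element is the sequence these genes are best known for, so the 250 bases before each gene's RefSeq start (build GRCh38.p14) were searched on both strands for 3 units, GAA, TTC and GAA with NN between neighbours, or the reverse complement TTC, GAA and TTC spaced alike. Exact matches were present before HSPA8 alone among the 10 members, and before 0.33% of 15226 genes of the table with such a stretch. Allowing 1 mismatch among the 9 fixed letters added HSPA1A and HSPA1B, and 4.28% of the 15226 genes had a match of this kind. The matches are printed below with 8 bases on either side, the 13 matching positions in capitals, because they show how alike HSPA1A and HSPA1B are and what the element looks like in HSPA8.
HSPA1A, chr6:31815429-31815457, plus strand: aaaccctgGAATATTCCCGACctggcagc
HSPA1B, chr6:31827625-31827653, plus strand: aacccctgGAATATTCCCGACctggcagc
HSPA8, chr11:123062346-123062374, minus strand: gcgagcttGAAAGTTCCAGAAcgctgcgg
HSPA8, chr11:123062171-123062199, minus strand: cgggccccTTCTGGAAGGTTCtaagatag
The same 13 letters stand before HSPA1A and HSPA1B, and the 2 exact matches of HSPA8 have opposite orientations. The other 7 members had no match in this window, which covers only the bases before the RefSeq start. The principal GENCODE transcript begins elsewhere, 52558 bases from that start for HSP90AA1, 10851 for DNAJB1, 1672 for HSP90AB1 and between 163 and 461 for HSPH1, AHSA1, HSPD1 and HSPE1. For HSPA8 it begins 199 bases away, and the second of its printed matches lies inside that transcript. A match is a description of the letters and not a site shown to be bound.

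Column totals of the deposited counts ran from 49136502 to 54905215 in ASO and from 50728524 to 53715905 in NC. Levels are given as CPM, each library's counts divided by its TMM-scaled total (in units of 1e+06), with mean ± SD over 3 libraries. Nothing in the labels states that the libraries came from separate cultures, so their spread may be technical. Over all genes, 6464 passed the edgeR threshold (adjusted p under 0.05), 46% of those tested, with 2692 lower (19.1%) and 3772 higher (26.8%) in ASO. The median log2 fold change of all genes was 0.01. KRT8, a keratin of simple epithelia, was at 1166 ± 181 CPM in ASO and 1360 ± 94.3 CPM in NC. KRT18, another, was at 738 ± 79.2 CPM in ASO and 712 ± 55.8 CPM in NC. In contrast, the epithelial adhesion gene EPCAM was at 2.93 ± 0.51 CPM in ASO and 4.37 ± 1.13 CPM in NC. CDH1, also of epithelial adhesion, was at 1.81 ± 0.13 and 1.06 ± 0.23 CPM, and the intestinal factor CDX2 at 0.19 ± 0.12 and 0.31 ± 0.17 CPM. VIM, of mesenchymal cells, was at 1290 ± 106 CPM in ASO and 1201 ± 82.2 CPM in NC, and the leukocyte marker PTPRC was at 0 in every library. Whether these levels are those of HCT116 was not tested. Markers differed between the groups beside the chaperones: LGALS4, an intestinal galectin, was at 18.05 ± 2.65 CPM in ASO and 0.0066 ± 0.011 CPM in NC, and 10 mesenchymal markers summed to 3234 to 3851 CPM in ASO and 2361 to 2696 CPM in NC. Within that list COL5A1 was at 1280 ± 125 CPM in ASO and 612 ± 33.3 CPM in NC, whereas PDGFRB was at 41.0 ± 3.99 CPM in ASO and 101 ± 8.09 CPM in NC, and DCN, LUM and THY1 also had lower means in ASO. Genes above 0 numbered 15452 to 15665 in the ASO libraries and 13934 to 13995 in the NC libraries. The part of these differences in the chaperone values was not tested.

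Of the 10 chaperone genes, 8 were lower in ASO past the edgeR threshold, where 19.1% of all genes were, and 0 were higher, also at an unadjusted edgeR p under 0.05 and by DESeq2 and limma-voom. The same 8 had every ASO library below every NC library, a pattern that 25.9% of the genes tested showed, while 31.6% had every ASO library above every NC library. The median log2 fold change (ASO over NC) of all 10 members was -1.09. Among the 2240 genes at least as abundant as the least abundant member, at a mean of 103.9 CPM or more, 25.7% were lower in ASO. Because the choice of members rests on this contrast, neither count bears on whether the set stands out. The 10 genes together held 0.742%, 0.940% and 0.804% of the counts in the ASO libraries, against 1.46%, 1.76% and 1.45% in the NC libraries. In bulk RNA, fewer cells with these transcripts and fewer transcripts per cell cannot be told apart.

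**Figure D1:**
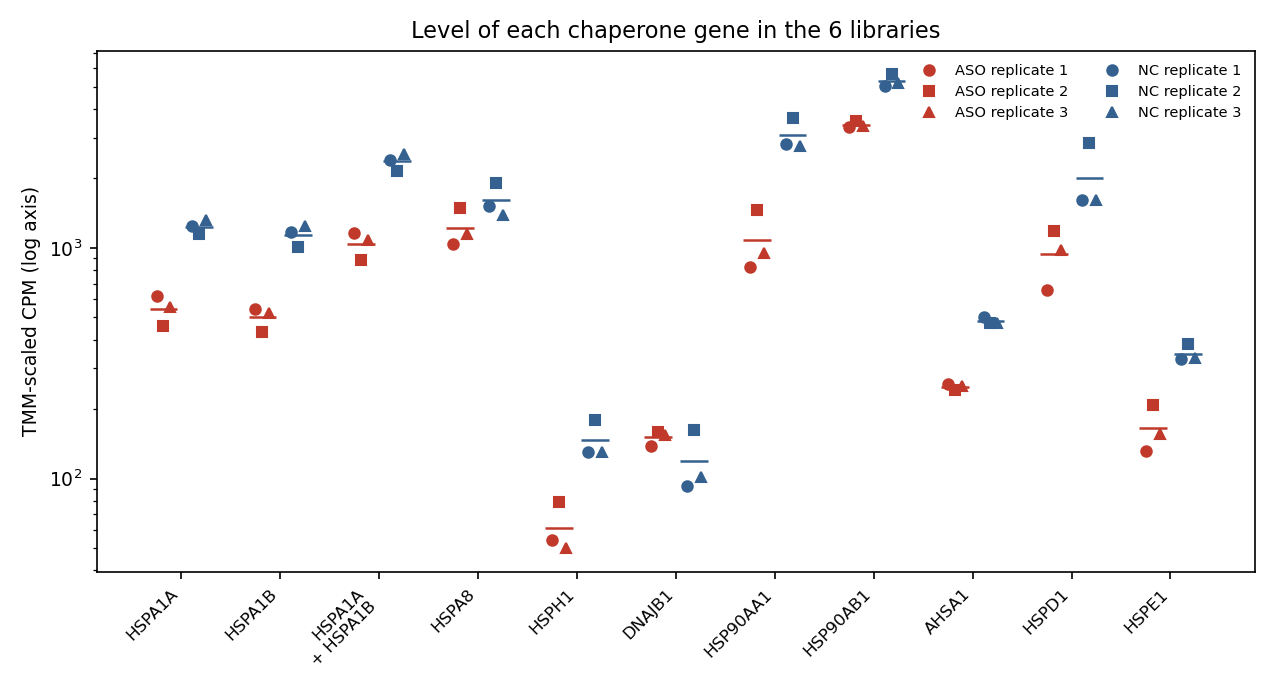
TMM-scaled CPM (log axis) of each chaperone gene in 3 ASO and 3 NC libraries, 1 symbol per library and a bar at each group's mean. The ASO libraries lie below the NC libraries for every gene shown except HSPA8 and DNAJB1, whose groups overlap.

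HSPA1A and HSPA1B encode the main stress-inducible Hsp70. HSPA1A (chromosome 6, 31815464 to 31817946 of GRCh38, plus strand) and HSPA1B (31827735 to 31830255) each have 1 exon, and their starts are 12271 bases apart. Their coding sequences, of 1923 bases each, differ at 4 bases. Of the 100-base windows of the coding sequence of HSPA1A, 91.0% occur unchanged in that of HSPA1B. Reads from 1 copy can thus be counted at the other, and the sum is the firmer value.

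HSPA1A stood at 618, 457 and 556 CPM in the ASO libraries, against 1238, 1146 and 1314 CPM in the NC libraries. HSPA1B stood at 543, 433 and 523 CPM in ASO, against 1172, 1004 and 1248 CPM in NC. The summed level was 1161, 890 and 1078 CPM in ASO, against 2410, 2150 and 2562 CPM in NC. In each case the highest ASO library was below the lowest NC library, and replicate 2 was the lowest library of both groups. The sum was 2.28-fold lower in ASO (log2 fold change -1.19 ± 0.12, SE). HSPA1A took 52.0% ± 1.02 of the sum in ASO and 52.0% ± 1.13 in NC (SD, n = 3 each), and the libraries of the groups overlapped.

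HSPA8 encodes Hsc70, the Hsp70 present in unstressed cells (chromosome 11, 123057489 to 123063230, minus strand, 9 exons). Its span contains the small nucleolar RNA genes SNORD14C, SNORD14D and SNORD14E, which were not analysed here. HSPA8 stood at 1035, 1492 and 1144 CPM in ASO, against 1521, 1906 and 1393 CPM in NC. ASO replicate 2 lay above NC replicate 3, so the groups overlapped, and the log2 fold change of -0.39 ± 0.16 (SE) did not pass the threshold. It passed when ASO replicate 2 was left out, at -0.57, and when replicate number was added to the fit as a block, at -0.40. GENCODE 29 lists 17 numbered pseudogenes of HSPA8, which were not analysed here and can share its reads.

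HSPH1 encodes Hsp105, an Hsp110 protein that acts as nucleotide exchange factor of Hsp70 (chromosome 13, 31134974 to 31162388, minus strand, 18 exons). It stood at 54.1, 78.9 and 49.8 CPM in ASO, against 130, 180 and 131 CPM in NC. All ASO libraries were below all NC libraries, and the level was 2.41-fold lower in ASO (log2 fold change -1.27 ± 0.20, SE).

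DNAJB1 encodes Hsp40, the stress-inducible J-protein that works with HSPA1A (chromosome 19, 14514770 to 14529770, minus strand, 3 exons). The deposited data annotate it over a longer span, 14514769 to 14560262. DNAJB1 was the single member whose mean was higher in ASO, with 139, 159 and 155 CPM, against 92.5, 163 and 102 CPM in NC. NC replicate 2 lay above every ASO library while the other NC libraries lay below every ASO library. The log2 fold change of 0.34 ± 0.20 (SE) did not pass the threshold with all 6 libraries. Without NC replicate 2 it was 0.65 and passed. TECR, an enzyme gene of fatty acid elongation on the opposite strand that overlaps DNAJB1, stood at 79.1 ± 9.97 CPM in ASO and 86.3 ± 6.78 CPM in NC (edgeR adjusted p = 0.424). The sources used here do not say whether counting used strand.

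HSP90AA1 and HSP90AB1 encode the stress-inducible and the constitutive cytosolic Hsp90. HSP90AA1 (chromosome 14, 102080738 to 102139699, minus strand, 11 exons) stood at 823, 1458 and 949 CPM in ASO, against 2828, 3663 and 2774 CPM in NC. HSP90AB1 (chromosome 6, 44246166 to 44253888, plus strand, 12 exons) stood at 3334, 3540 and 3385 CPM in ASO, against 5034, 5642 and 5193 CPM in NC. Neither gene's groups overlapped. HSP90AA1 was 2.87-fold lower in ASO (log2 fold change -1.52 ± 0.22, SE), the largest difference among the 10, and HSP90AB1 was 1.55-fold lower (-0.63 ± 0.07).

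The balance of the 2 Hsp90 genes therefore differed. The counts of HSP90AA1 over those of HSP90AB1 were 0.247, 0.412 and 0.280 in ASO, against 0.562, 0.649 and 0.534 in NC. The highest ASO ratio was below the lowest NC ratio. No 100-base window of either transcript occurs in the other, so exact reads of that length would not be exchanged between them. Pseudogenes were searched only as the gene symbol with P and a number, so Hsp90 pseudogenes under other names were not covered. WDR20, on the opposite strand and overlapping HSP90AA1, rose 1.70-fold (edgeR adjusted p = 0.00111), to 34.8 ± 0.94 CPM in ASO against 20.4 ± 0.95 CPM in NC.

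AHSA1 encodes the co-chaperone that activates the Hsp90 ATPase (chromosome 14, 77457870 to 77469474, plus strand, 9 exons). It stood at 258, 241 and 252 CPM in ASO, against 501, 472 and 472 CPM in NC, with every ASO library below every NC library. It was 1.93-fold lower in ASO (log2 fold change -0.95 ± 0.07, SE). VIPAS39, a gene of endosomal sorting that overlaps AHSA1 on the opposite strand, was lower as well, at 20.8 ± 2.45 CPM in ASO against 38.6 ± 1.43 CPM in NC (edgeR adjusted p = 0.00108).

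HSPD1 (chromosome 2, 197486581 to 197516737, minus strand, 12 exons) and HSPE1 (197499994 to 197503457, plus strand, 4 exons) lie head to head. The starts of their principal transcripts are 53 bases apart, and the transcripts overlap between these starts. The annotated span of HSPD1 contains that of HSPE1, and HSPE1-MOB4 overlaps HSPE1 on the same strand. Reads of these genes may therefore not be fully separated, and the strand setting is not known. HSPD1 stood at 655, 1179 and 977 CPM in ASO, against 1613, 2835 and 1605 CPM in NC. HSPE1 stood at 132, 207 and 156 CPM in ASO, against 330.2, 382 and 333 CPM in NC. For both genes every ASO library was below every NC library, and replicate 2 was the highest library of each group.

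HSPD1 was 2.15-fold lower (log2 fold change -1.11 ± 0.28, SE) and HSPE1 2.11-fold lower (-1.08 ± 0.16) in ASO. Without ASO replicate 1, HSPD1 no longer passed the edgeR threshold, at -0.91. The counts of HSPD1 over those of HSPE1 were 4.97, 5.68 and 6.25 in ASO, against 4.89, 7.42 and 4.83 in NC, with overlapping groups. GENCODE 29 lists 17 numbered pseudogenes of HSPD1 and 26 of HSPE1, which were not analysed here and can share their reads.

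**Figure D2:**
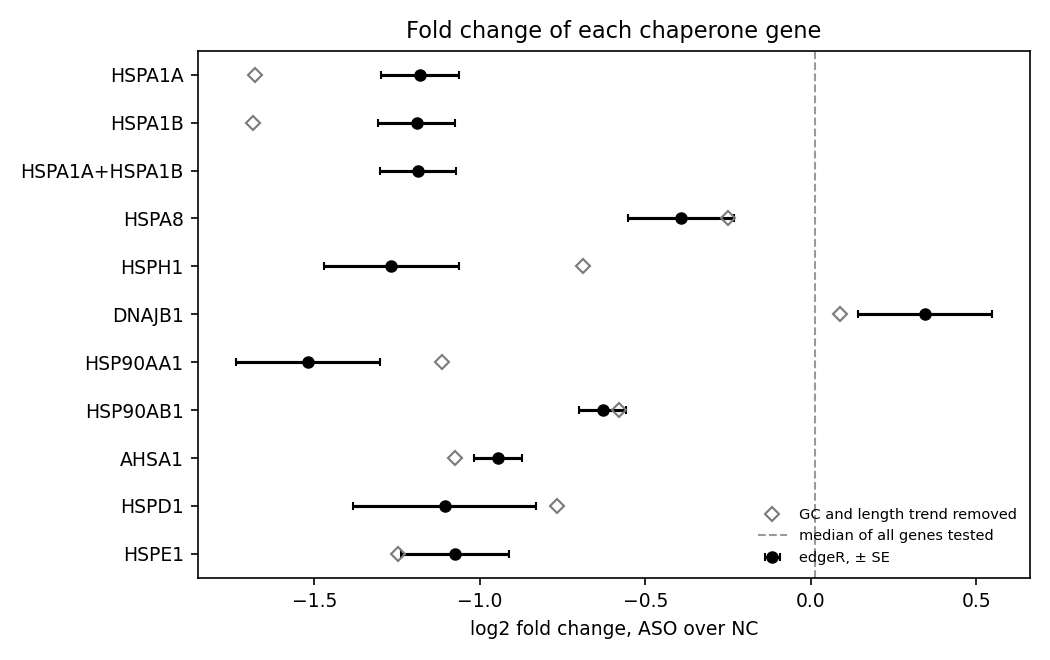
Log2 fold change (ASO over NC) of each chaperone gene from the edgeR fit with its SE (filled points), and after removal of a trend with GC content and transcript length (open points, no error). The dashed line is the median of all genes tested, 0.01, and DNAJB1 is the only gene to its right on the fitted scale.

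Levels of different genes were compared per length, as CPM per kilobase of the principal transcript. HSP90AB1 was highest in both groups, at 1279 ± 40.2 CPM per kb in ASO and 1978 ± 118 CPM per kb in NC, clear of the next gene in every library. In ASO it was followed by HSPA8 at 497 ± 96.9, HSPD1 at 382 ± 108 and HSP90AA1 at 319 ± 99.4 CPM per kb, whose libraries overlapped. In NC the order of these 3 was HSP90AA1 at 914 ± 147, HSPD1 at 822 ± 288 and HSPA8 at 652 ± 108 CPM per kb. The NC libraries of HSPD1 overlapped those of both others, while every NC library of HSP90AA1 was above every NC library of HSPA8. HSPA1A, HSPA1B, AHSA1 and HSPE1 took the next 4 places in both groups, with AHSA1 above HSPE1 in ASO and below it in NC. The libraries of AHSA1 and HSPE1 overlapped in both groups. In ASO the highest library of HSPA1A, at 249 CPM per kb, was above the lowest of HSP90AA1, at 244 CPM per kb. DNAJB1, at 66.6 ± 4.66 CPM per kb in ASO and 52.5 ± 16.8 CPM per kb in NC, and HSPH1, at 11.7 ± 3.02 and 28.3 ± 5.52 CPM per kb, were lowest in both.

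Replicate 2 stood apart from replicates 1 and 3 in both groups, and the members split on it in the same way. In ASO and in NC alike, replicate 2 had the highest level of 7 members and the lowest level of the other 3, and the 3 were HSPA1A, HSPA1B and AHSA1 each time. Over all genes tested, 25.3% were highest in replicate 2 of both groups and 26.3% lowest. The deviation of these libraries went with base composition. Genes at 10 CPM or more were put in 3 groups of 3022 by transcript GC content. Those of lowest GC content were higher in replicate 2 than in the mean of the other replicates, by a median of 0.34 on the log2 scale in ASO and 0.22 in NC, and those of highest GC content were lower, at -0.26 in ASO and -0.19 in NC. The middle group, of 45.6% to 55.5% GC, stood at -0.05 in ASO and -0.02 in NC. Transcript GC content was 59.7% for HSPA1A, 58.7% for HSPA1B and 51.7% for AHSA1, and between 40.0% (HSPH1) and 53.0% (DNAJB1) for the 7 others. DNAJB1 was thus above AHSA1 in GC content, yet was highest in replicate 2 of both groups. The part of base composition in the split of the members was not tested.

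**Figure D3:**
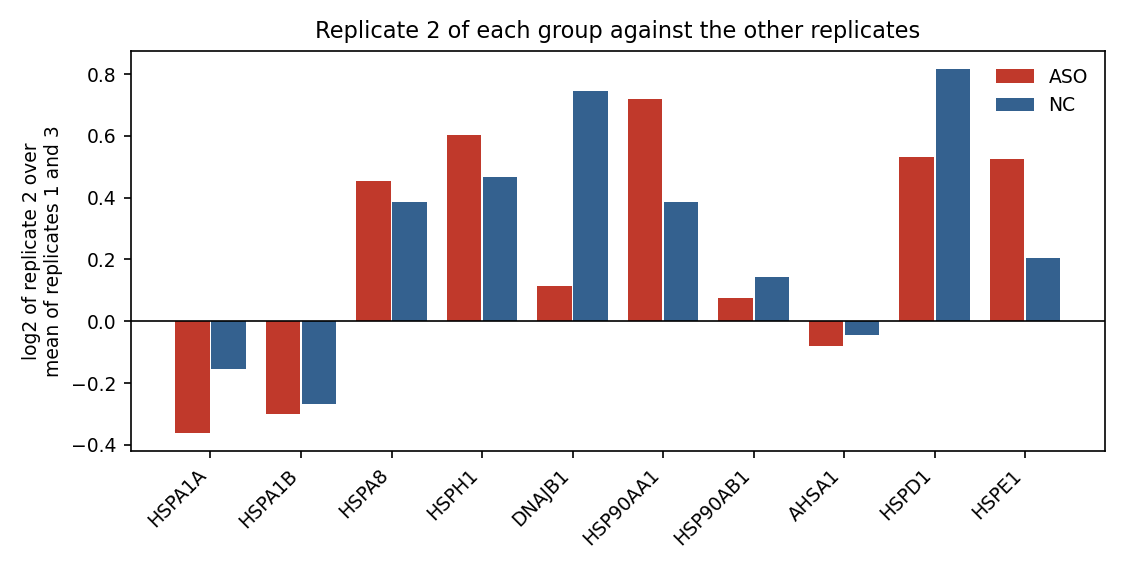
Log2 of the level in replicate 2 over the mean of replicates 1 and 3, for each chaperone gene in ASO and in NC. Bars point the same way in both groups for every gene, downward for HSPA1A, HSPA1B and AHSA1 and upward for the 7 others.

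Base composition also went with the difference between ASO and NC. The median log2 fold change was -0.34 in the group of lowest GC content, -0.06 in the middle group and 0.09 in the group of highest GC content. With the trend across GC content and transcript length removed, HSPA1A and HSPA1B stood further below NC, at -1.68 and -1.69 on the log2 scale. HSPE1, at -1.25, and AHSA1, at -1.08, also stood further below. Nearer to NC than before were HSPH1 at -0.69, HSP90AA1 at -1.11, HSPD1 at -0.77 and HSP90AB1 at -0.58. DNAJB1 stood at 0.09 and HSPA8 at -0.25 on this scale.

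Chaperone genes outside the 10 were read from lists set up by role. Among the 134 that could be tested, edgeR called 58 lower and 15 higher in ASO and left 61 uncalled, beside 19.1% lower and 26.8% higher over all genes. Their median log2 fold change was -0.34. The counts of each list below stand beside the same shares over all genes. The lists were drawn up with earlier results of these data known, and no test of a list against other genes was made.

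Of 25 co-chaperone genes of Hsp90, 13 were lower and 0 higher, with a median of -0.44. By DESeq2 and limma-voom as well as edgeR, none of the 25 was higher, and at an unadjusted edgeR p under 0.05 the number higher was also 0. STIP1, the adaptor that hands clients from Hsp70 to Hsp90, fell 1.58-fold to 492 ± 18.9 CPM, against 776 ± 16.8 CPM in NC (edgeR adjusted p = 0.000229). PTGES3 (p23), which stabilises the closed Hsp90, fell 1.69-fold (adjusted p = 0.00061), and the immunophilin FKBP4, of steroid receptor complexes, fell 1.43-fold (adjusted p = 0.00106). CACYBP, which binds the SIAH ubiquitin ligases, fell 2.14-fold (adjusted p = 0.000245). CDC37, which brings kinases to Hsp90, was named after its values were seen and stood at 341 ± 42.2 CPM in ASO and 349 ± 27.9 CPM in NC (adjusted p = 0.828).

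Other Hsp70 and Hsp110 genes were split, with 3 lower and 2 higher of 9 tested, beside 19.1% lower and 26.8% higher over all genes. HSPA4, an Hsp110 relative of HSPH1, fell 2.01-fold to 159 ± 27.3 CPM, against 319 ± 33.2 CPM in NC (edgeR adjusted p = 0.000866). HSPA1L, whose start lies 399 bases from that of HSPA1A, fell 1.92-fold (adjusted p = 0.00482), and HSPA12A fell 1.77-fold (adjusted p = 0.00297). HSPA2, best known from the testis, rose 6.48-fold to 10.7 ± 1.98 CPM, against 1.65 ± 0.54 CPM in NC (adjusted p = 0.000325). The other gene that rose was HSPA12B, at 1.95-fold, chosen after its values were seen. HSPA6, a strictly stress-inducible Hsp70 gene also named after its values were seen, was low in both groups, at 1.62 ± 0.70 CPM in ASO and 2.90 ± 0.42 CPM in NC (adjusted p = 0.0972).

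Among 26 other J-protein genes, 9 fell and 3 rose, with a median of -0.21. DNAJC6, which with Hsc70 strips clathrin from vesicles, fell 4.09-fold (edgeR adjusted p = 0.000138), and the splicing-associated DNAJC8 fell 1.61-fold (adjusted p = 0.00103). DNAJB2 rose 2.34-fold (adjusted p = 0.000186), and DNAJC5, of synaptic and secretory vesicles, rose 1.55-fold (adjusted p = 0.0015). Of 9 nucleotide exchange factors and other Hsp70 partners, 2 fell, beside 19.1% of all genes tested, and the median was -0.03. In this list 0 rose, also at an unadjusted edgeR p under 0.05 and by DESeq2 and limma-voom. ST13, the Hsp70-interacting protein, fell 1.74-fold (adjusted p = 0.000489), and BAG2, an inhibitor of the ubiquitin ligase STUB1, fell 1.71-fold (adjusted p = 0.00186).

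HSF1, the transcription factor of the heat shock response, did not pass, with 122 ± 17.2 CPM in ASO and 117 ± 12.9 CPM in NC (edgeR adjusted p = 0.73). HSF2, its lowly expressed relative, fell 1.58-fold to 3.09 ± 0.36 CPM, against 4.87 ± 0.40 CPM in NC (adjusted p = 0.0306), and 4 of the 6 fits with 1 library left out ended this call. HSBP1, which binds heat shock factor 1, fell 1.52-fold (adjusted p = 0.00894) and HSBP1L1 1.36-fold (adjusted p = 0.0217), the second called in 3 of those 6 fits. HSF5 was at 0 in every NC library and had 21, 62 and 40 deposited counts in the ASO libraries. Its ASO mean, 0.81 CPM, was 3.55-fold above 0.228 CPM, the NC mean at 12 counts per library, the smallest amount taken as detected.

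Other genes known as targets of heat shock factor 1 went both ways, with 2 lower and 4 higher of 8. Over all genes tested, 19.1% were lower and 26.8% higher. IER5, a co-activator of heat shock factor 1, rose 2.85-fold to 67.6 ± 6.78 CPM, against 23.7 ± 1.72 CPM in NC (edgeR adjusted p = 5.89e-05). RGS2, a regulator of G proteins, rose 4.43-fold (adjusted p = 0.000422), and ZFAND2A, a proteasome-associated stress protein, rose 2.20-fold (adjusted p = 0.00161). MRPL18, a mitochondrial ribosomal protein gene, fell 1.48-fold (adjusted p = 0.0017). The other gene that fell was UBB, a ubiquitin gene chosen after its values were seen, at 353 ± 32.8 CPM in ASO against 511 ± 57.9 CPM in NC (adjusted p = 0.00555).

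Small heat shock protein genes, whose products hold unfolded proteins without ATP, were made up of 2 lower, 3 higher and 2 that did not pass. HSPB8 fell 1.31-fold to 94.8 ± 6.16 CPM, against 124 ± 2.21 CPM in NC (edgeR adjusted p = 0.00829). HSPB9, HSPB6 and CRYAA were the 3 called higher, and each was below 2 CPM on average in both groups. CRYAA, like HSF5, passed the filter on low counts through the ASO libraries alone, so a higher value in ASO was the only difference it could show. The same holds for HSPB9, which had 15, 8 and 8 counts in the NC libraries, too few to pass without the ASO libraries. CRYAA, HSPB9 and HSF5 are included in the counts of genes called higher. CRYAA was at 0 in every NC library and had 25, 20 and 11 counts in the ASO libraries, the last below the 12 taken as detected. HSPB1 (Hsp27), named after its values were seen, stood at 454 ± 65.2 CPM in ASO and 500 ± 81.3 CPM in NC (adjusted p = 0.462).

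Other mitochondrial chaperone and protease genes fell in 6 of 20 and rose in 2, with a median of -0.25. PHB1, a prohibitin of the inner membrane, fell 1.53-fold (edgeR adjusted p = 0.00036), and the inner membrane protease AFG3L2 fell 1.68-fold (adjusted p = 0.00202). GRPEL2, a nucleotide exchange factor of mitochondrial Hsp70, rose 1.87-fold (adjusted p = 0.00479), and HSCB, a J-protein of iron-sulfur cluster assembly, rose 1.54-fold (adjusted p = 0.0103). HSPA9, the mitochondrial Hsp70 itself and named after its values were seen, stood at 592 ± 83.7 CPM in ASO and 769 ± 114 CPM in NC (adjusted p = 0.0539).

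Chaperones of other systems were set beside these. TRiC, the cytosolic chaperonin related to HSPD1, had 7 of 8 subunit genes lower, with a median log2 fold change of -0.51, CCT6A falling 1.77-fold (edgeR adjusted p = 0.00136) and CCT5 1.40-fold (adjusted p = 0.00123). Endoplasmic reticulum chaperones had 11 of 16 lower and a median of -0.41, with HSPA5, the Hsp70 of that compartment, 1.49-fold lower (adjusted p = 0.000519) and HSP90B1, its Hsp90, 2.13-fold lower (adjusted p = 0.0022). In both lists 0 genes were higher, by edgeR at an unadjusted p under 0.05 and by DESeq2 and limma-voom as well. The median of the 10 members was -1.09, and the difference between the lists was not tested.

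**Figure D4:**
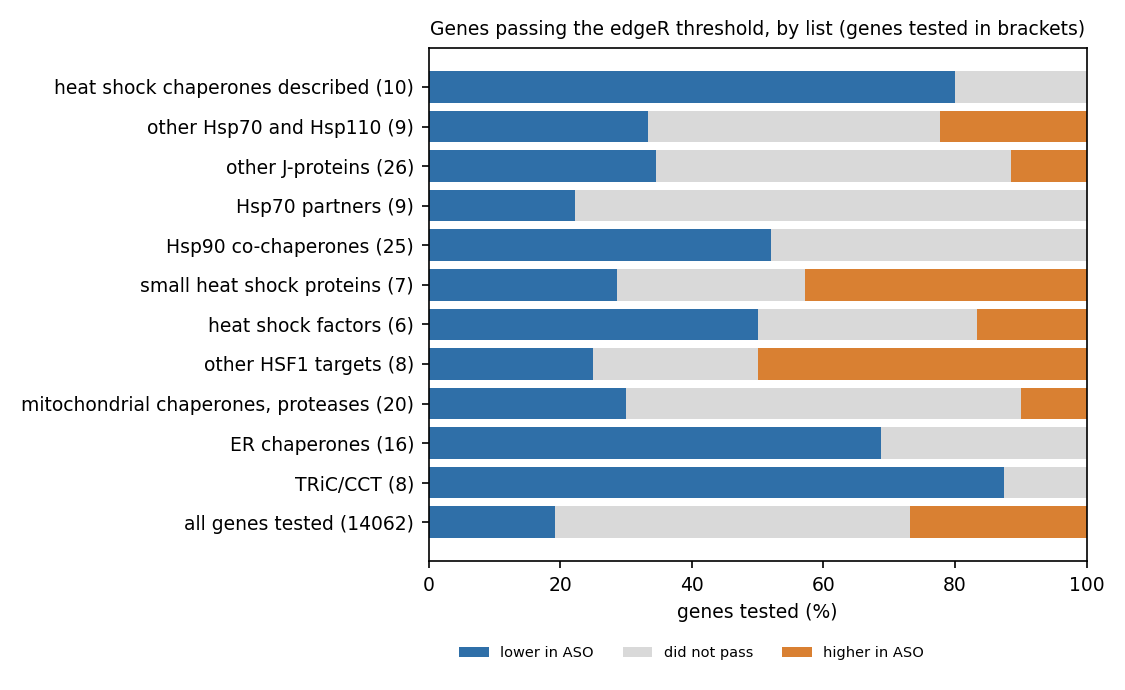
Share of the genes tested (percent) that were lower in ASO, did not pass, or were higher in ASO by edgeR, for the 10 chaperone genes, 10 other lists and all genes tested. The 10 members were chosen with this contrast known; TRiC/CCT had 7 of 8 genes lower, and the other HSF1 targets had 4 of 8 higher.

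The genes whose profile over the 6 libraries was most like the members' median profile were found by the root mean square difference of log2 CPM, centred on the NC mean, among 9093 genes at 10 CPM or more. PRDX1, a peroxiredoxin that removes hydrogen peroxide, was nearest, at a difference of 0.048, with 586, 729 and 633 CPM in ASO, against 1197, 1381 and 1178 CPM in NC. It was followed by CCDC88A (0.059), NIN (0.064), UBE2D4 (0.066) and EXOC2 (0.067). The likeness covers the contrast that chose the members.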

How the data were processed

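RNA sequencing of 3 ASO and 3 NC libraries was analysed. Values in the deposited table are estimated counts for each gene, unscaled for depth. Tools named without version or role, per the submitters' processing notes, are STAR, StringTie, FastQC and DESeq2, with build hg38. The sources used here do not give the annotation, the strand setting or the treatment of multiply mapped reads. In each library the commonest non-zero value was 4, as when 1 fragment is worth about 4 counts, which would make 12.3 to 13.7 M fragments per library. The floor of detection was set at 3 fragments, or 12 counts, and covers counting error only. The values were whole as deposited.

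Counts were fitted in R 4.3.3 with edgeR 4.0.16 (limma 3.58.1): filterByExpr by group (at least 10 counts, total at least 15), TMM scaling, the robust quasi-likelihood test without covariates, and Benjamini-Hochberg adjustment over 14062 genes at 0.05. SE is the log2 fold change divided by the square root of the F statistic. The fit was tested on simulated data. HSPA1A and HSPA1B were also fitted as their sum. Replicate pairs differed beyond sampling noise (chi-square per degree of freedom 10.7 to 28.5). Transcript length and GC content came from the principal GENCODE 29 transcript (GRCh38), known for 13910 of the genes tested and all 10 members, and their trend was removed by loess at a span of 0.3. Likeness used log2 CPM with 0.5 added. Promoter sequences are from RefSeq, matched by symbol for all 10 members.

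Genes were named by rule: the members, HSF1, HSF2, up to 4 called genes of smallest p per list, and the 5 of most alike profile. Others are marked where they occur. The members and lists were chosen with earlier results of these data known. Of 139 listed genes, 138 matched the table. HSPA7 was not analysed here. 1 gene called higher among the other heat shock factor 1 targets is not reported here. Alternatives were RLE, upper-quartile and no scaling, other filters, DESeq2 1.42.0, limma-voom, a replicate block, leaving out each library, counts divided by 4 and removal of the GC and length trend.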

Additional observations from a re-analysis of the deposited data

How the results depend on the processing

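The 8 members lower in ASO numbered 8 under every scaling, filter and tool tried and with counts divided by 4, and 7 to 9 with 1 library left out. The median log2 fold change of all 10 members, -1.09, became -0.92 with the GC and length trend removed and ran from -1.14 to -0.96 with 1 library left out. The replicate numbers did not pair the libraries by the rule used (correlation of deviations 0.11, 0.361 and 0.0675 for equal numbers, and not every library correlated best with its own number). With a replicate block 9 members were lower, HSPA8 added at -0.40, and 3494 genes were lower in all. With 1 library left out, genes lower ran from 1755 (without NC replicate 1) to 3199 (without ASO replicate 2), being 1764 without ASO replicate 3. The cause was not tested. CRYAA and HSF5, at 0 in NC, gave no value with counts divided by 4, nor CRYAA with the filter at a mean of 10 counts. HSF1 changed sign without ASO replicate 1 (-0.020) and without NC replicate 2 (-0.017), never past the threshold, in a range from -0.020 to 0.17 with 1 library left out. Of 807 single-gene values under these alternatives other than removal of the GC and length trend, 794 kept their direction and side of the threshold. That removal gave log2 fold changes alone, without p, and is not part of the 807.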
